A study of Caenorhabditis elegans with 146 samples.

Results

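The genes of M phase entry described here are cdk-1, the B-type cyclin genes cyb-1, cyb-2.1, cyb-2.2 and cyb-3, the kinase genes wee-1.3 and plk-1, the phosphatase genes cdc-25.1 and cdc-25.2, and cks-1. They were chosen by gene symbol for their known role, with earlier results of these data known. All 10 were found among the 46927 genes of the count table. RNA-seq libraries were made from dissected gonads of adult Caenorhabditis elegans hermaphrodites, 1 library for each segment, oocyte or zygote. The worms carried a pie-1 promoter driven H2B::GFP transgene (strain AZ212) in every group, and no treatment or mutant was compared. The stages follow the path of the germline: S1 is the distal proliferative zone up to the transition zone, S2 the pachytene zone, S3 the loop with the diplotene zone, S4 the diakinesis zone, and -3, -2 and -1 are the last 3 oocytes before the spermatheca. P0 is the zygote with its pronuclei joined. S1 to S4 hold many nuclei in a shared cytoplasm, and sheath cells were harvested together with the segments and oocytes.

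The kinase CDK-1 bound to a B-type cyclin drives entry into M phase, both in mitosis and at meiotic maturation. Kinases of the Wee1 and Myt1 family, among them WEE-1.3, hold the complex inactive by phosphorylating CDK-1, and CDC-25 phosphatases remove these phosphates. PLK-1, a Polo kinase, promotes this activation, and CKS-1 is a small subunit that helps the complex bind its substrates. In C. elegans oocytes wait in diakinesis with CDK-1 held inactive until the -1 oocyte matures, so that the proteins needed for the meiotic divisions and the first embryonic cycles are laid down, or stored as mRNA, beforehand. Transcript levels do not measure the activity of these proteins.

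Of the 135 libraries of the 8 stages, the 104 that the deposited quality table marks as used were analysed. The segments gave 19 libraries for S1, 17 each for S2 and S3, and 11 for S4, and the single cells gave 6 for the -3, 13 for the -2 and 15 for the -1 oocyte and 6 for P0. They carry 43 worm identifiers, and the same table puts 82 of them in batch A and the other 22 in batch B. Reads counted on genes ranged from 1273040 to 73449925 per library. The median number of genes with at least 1 read was 7029 in S1, 7498 in S2, 9892 in S3 and 8132.5 to 9476 from S4 to P0. In S1 the batch B library of worm A stood apart, with the highest TPM of the 19 for 8 of the 10 genes and the fewest genes at a TPM of at least 1 (4321), and counts that it moves by more than 1.5 times are also given without it. Oocyte markers, a list of 8 genes such as rme-2 and puf-5, had a median summed TPM of 567.9 in S1 and of 8603 to 12236 from S4 to P0. Distal markers did not fall throughout: 3 of 5 (fbf-1, fbf-2 and sygl-1) were lower in S2 than in S1, but their summed TPM had a median of 264 in S1 and 762 to 1232 from S3 on. Marker genes of spermatheca and uterus had a median summed TPM of 14307 in -1 oocytes (range 46.0 to 48532), and of 53.4 to 111 in the other stages. Those of sheath and muscle rose from 25.8 in S1 to 1004 in -1 oocytes and stood at 5.55 in P0, where 7 of the 11 had a median of 0. In S1 this held for 6 of the 11, and in -1 oocytes for tnc-2 alone. The sheath gene ceh-18 had a median of 0 in S1, S2, S4, -3 oocytes and P0. In such bulk samples more cells of a type and more RNA per cell cannot be told apart, and the part of these cells in the values below was not tested.

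Levels are given as TPM, a transcript abundance corrected for length and rescaled to the same total over worm genes in each library, which allows genes of different length to be compared. Together the 10 genes made up a median of 0.0650% of all TPM in S1, 0.106% in S2, 0.259% in S3, 0.381% in S4 and 0.481% in -3 oocytes. The share was then 0.439% in -2 oocytes, 0.353% in -1 oocytes and 0.572% in P0, with ranges of 0.209% to 0.907% in -1 oocytes and 0.219% to 1.09% in P0. cyb-3 had the highest mean of the 10 in each stage and cdc-25.2 the lowest. Between them the order changed along the gonad: plk-1 stood in place 3 in S2 and in place 7 from S3 on, while cyb-2.2 moved from place 8 in S1 to place 2 from S3 to the -1 oocytes. Most neighbors in this order lay closer than the larger of their SDs. The gap below cyb-3 exceeded that spread in S2 to -2 oocytes, but not in S1, -1 oocytes or P0, and the gap above cdc-25.2 exceeded it in all 8 stages.

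**Figure D1:**
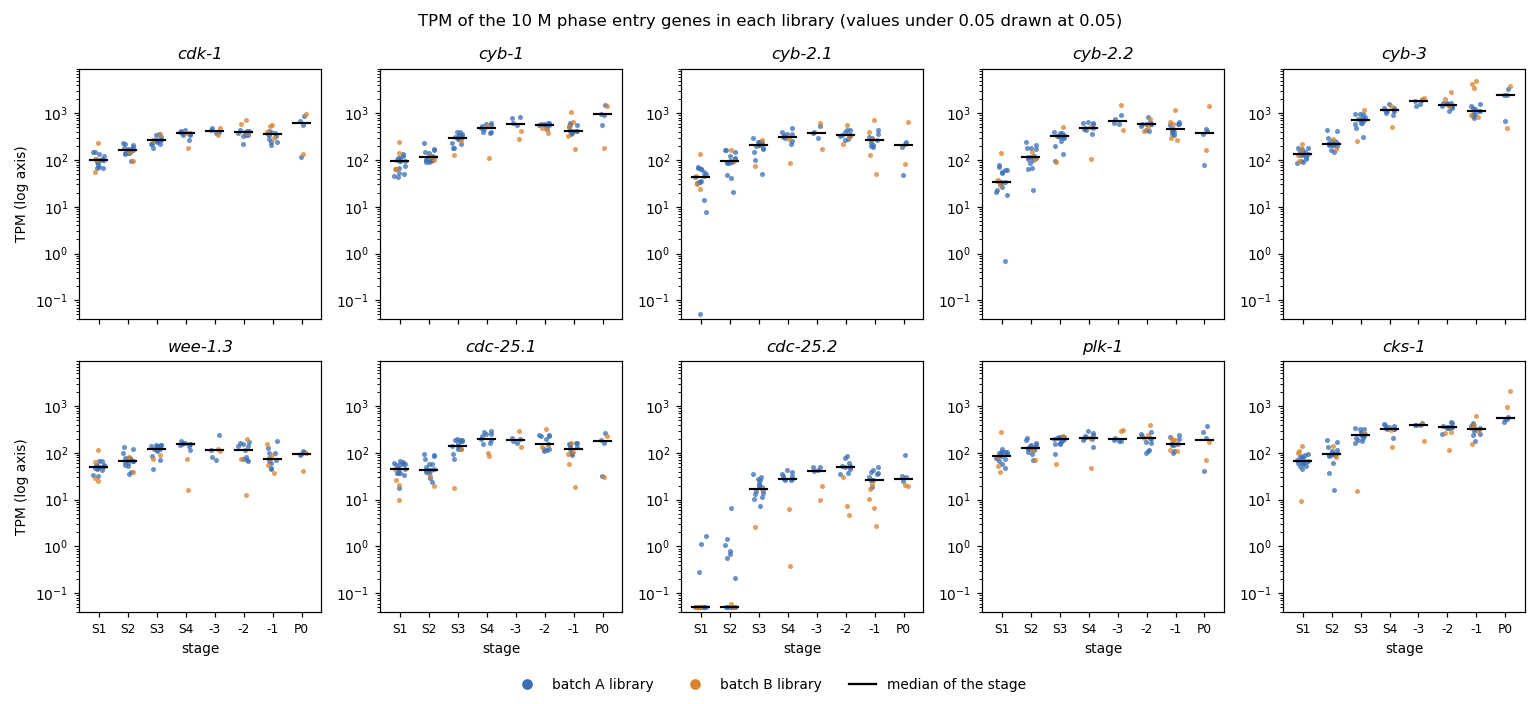
TPM of each of the 10 genes (log axis, values under 0.05 drawn at 0.05) in every used library, by stage, with batch A in blue, batch B in orange and the stage median as a bar. cyb-3 climbs from a median of 131 in S1 to 1853 in -3 oocytes, cdc-25.2 is at 0 in most S1 libraries and has a median of 16.5 in S3, and wee-1.3 and plk-1 change least.

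Among the B-type cyclins, which give CDK-1 its activity and its targets, cyb-3 was the most abundant. cyb-3 (chromosome V, bases 15395696 to 15397353 of WBcel235) is the worm's cyclin B3. Its lowest, median and highest TPM were 85.4, 131 and 223 in S1, 148, 225 and 432 in S2, and 249, 732 and 1187 in S3. In S4 they were 499, 1175 and 1556, and in -3 oocytes 1457, 1853 and 2074.5. The -2 oocytes gave 1118, 1461 and 2843, the -1 oocytes 809, 1108 and 4939, and P0 491, 2457 and 3861. All 15 -1 oocytes lay above the highest of the 19 S1 libraries. The 3 -1 oocytes that stood far above the rest belonged to batch B, whose median was 3394 against 1103 in batch A.

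cyb-1 (chromosome IV, 10735216 to 10737177) encodes cyclin B1. Its lowest, median and highest TPM were 43.7, 92.85 and 238 in S1, 89.7, 117 and 227 in S2, 127, 297 and 403 in S3, and 111, 491 and 629 in S4. The medians were 578 in -3, 563 in -2 and 423 in -1 oocytes, with a range over these of 175 to 1044, and P0 had a median of 950.3. No S2 library exceeded the highest of S1, or 5 of 17 without the S1 library of worm A. Between S2 and S3, 13 of 17 S3 libraries exceeded the highest of S2, and 14 of 15 -1 oocytes exceeded the highest of S1.

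cyb-2.1 (chromosome IV, 10985985 to 10987426) and cyb-2.2 (chromosome I) are close paralogs. Reads that map to both were not counted by HTSeq at its default settings, and Salmon divides them by an estimate, so the split between these genes is uncertain. The median TPM of cyb-2.1 was 42.9 in S1, 94.9 in S2, 214 in S3, 308 in S4, 386 in -3, 334 in -2 and 272 in -1 oocytes, and 205 in P0. That of cyb-2.2 was 34.3, 116, 318, 494, 681, 584, 462 and 386 in the same order. In S1 the libraries ranged from 0 to 134 for cyb-2.1 and from 0.680 to 143 for cyb-2.2, whereas the -1 oocytes ranged from 49.8 to 705 and from 272 to 1198. The -1 oocytes and S1 did not overlap for cyb-2.2, and 13 of 15 -1 oocytes exceeded the highest S1 library for cyb-2.1.

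The kinase gene itself, cdk-1 (chromosome III, 9747472 to 9748852), had a lowest, median and highest TPM of 54.6, 99.5 and 230 in S1, 92.8, 164 and 229 in S2, 179, 262 and 365 in S3, and 176, 369 and 445 in S4. The medians were 413, 390.4 and 367 in -3, -2 and -1 oocytes, within a range of 213 to 726, and 626 in P0. No S2 library exceeded the highest S1 library, which is that of worm A, but 10 of 17 exceeded the next S1 value of 147. Of the S3 libraries 13 of 17 exceeded the highest of S2. cks-1 (chromosome IV, 8513919 to 8514725), the gene of the small subunit, went from a median of 68.3 in S1 and 93.0 in S2 to 247 in S3, 332 in S4, 400.4 in -3, 353 in -2 and 324 in -1 oocytes, and 557 in P0. Its exons overlap those of C09G4.4 on the same strand, so reads there cannot be assigned with certainty. All 15 -1 oocytes (157 to 609) lay above all 19 S1 libraries (9.54 to 138).

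The inhibitory kinase gene wee-1.3 (chromosome II, 9713737 to 9716467) kept low levels. In C. elegans its product keeps oocytes from maturing too early. Its lowest, median and highest TPM were 24.9, 49.5 and 118 in S1, 34.9, 68.4 and 133 in S2, 45.4, 124 and 151 in S3, 16.2, 152 and 179 in S4, and 71.7, 113 and 243 in -3 oocytes. The -2 oocytes gave 12.8, 117 and 202, the -1 oocytes 37.7, 72.4 and 179, and P0 41.1, 96.4 and 111. The S1 and -1 oocyte ranges overlapped, and 3 of 15 -1 oocytes exceeded the highest S1 library, or 9 without the library of worm A, since the next S1 value was 68.2. The Polo kinase gene plk-1 (chromosome III, 8101348 to 8104069) had medians of 85.5 in S1, 129.7 in S2, 201 in S3, 207 in S4, 202 in -3, 208 in -2 and 156 in -1 oocytes, and 189 in P0. None of the 15 -1 oocytes (99.0 to 242) exceeded the highest S1 library (279.8), again that of worm A, but 11 exceeded the next S1 value of 124.

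The phosphatase genes differed in their distal level, where the median TPM of cdc-25.2 was 0 in S1 and S2. cdc-25.1 (chromosome I), needed in the worm for germ cell proliferation and early embryonic divisions, had medians of 44.6 in S1, 43.7 in S2, 138 in S3, 203 in S4, 189 in -3, 158 in -2 and 121 in -1 oocytes, and 177 in P0. Its exons overlap K06A5.2 on the other strand, and although HTSeq counts by strand at its default settings, the library protocols are not described as marking strand, so part of its reads may belong to that gene. cdc-25.2 (chromosome V, 1567076 to 1585532), which in the worm promotes oocyte maturation, was near the floor distally. It had no read in 16 of 19 S1 libraries and in 9 of 17 S2 libraries, and at most 15 and 62 reads in the others. In S3 each library had 54 to 615 reads. Pooled over libraries and scaled to the reads counted on genes (RPM), it had 0.267 RPM in S1, 1.28 in S2, 34.9 in S3, 53.7 in S4, and 37.2 to 66.1 in the oocytes and P0, where a count of 3 reads in a single library corresponds to 0.107 to 2.02 RPM in S1. Its median TPM was 16.5 in S3, 27.9 in S4, 42.0 in -3, 50.3 in -2 and 26.4 in -1 oocytes, and 27.7 in P0. All -1 oocytes (2.67 to 49.7) lay above all S1 libraries (0 to 1.70). The lower values came mostly from batch B, with medians of 10.6 against 33.1 in batch A in -1 oocytes.

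Neighboring stages were compared on the counts with edgeR's quasi-likelihood test in a model that also held the library batch and the detected share of genes. Calls needed a fold change above 1.5 together with a p under 0.05 after Benjamini-Hochberg adjustment over all genes tested. Fold changes are log2 values of the later over the earlier stage ± SE. They are on another scale than ratios of TPM: the median of all genes tested between S1 and -1 oocytes was 0.15 for the counts and 0.77 for log2(TPM + 1).

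Between S1 and S2, 2 of the 9 genes tested were called, both higher in S2 (n = 19 and 17), where 14.6% of all genes tested were called, 6.93% higher and 7.69% lower. cyb-2.2 rose by 1.07 ± 0.25 (adjusted p = 0.0023) and cyb-3 by 0.60 ± 0.11 (adjusted p = 0.000229). cyb-3 lies at the fold threshold, with a fold change of 1.51, and was not called in batch A alone (0.58). cdk-1 had an adjusted p of 0.0162, but its fold change was 1.33. cyb-2.1 had a fold of 0.81 ± 0.31 (adjusted p = 0.0583), and was called beside the other 2 with worm as a block (0.94 ± 0.27, adjusted p = 0.0179), which compares stages within the 11 worms that gave both. It was also called without the S1 library of worm A (0.85 ± 0.30, adjusted p = 0.0321). Of all genes tested, 1152 of 5225 were called with the block and 961 of 5248 without that library. In these 11 worms cyb-2.2, cyb-2.1, cyb-3, cdk-1 and wee-1.3 each had a higher TPM in S2 in 10 worms, and cdc-25.1 in 5. For log2(TPM + 1) the median of all genes tested was 0.12 in this comparison, and -0.04 for the counts. cdc-25.2 had too few reads to be tested.

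Between S2 and S3, where 20.6% of all genes tested were called, 15.8% higher and 4.76% lower, 4 of the 10 genes were called, all higher in S3 (n = 17 and 17). cdc-25.2 rose by 4.91 ± 0.96 (adjusted p = 0.000219), cyb-3 by 1.04 ± 0.22 (adjusted p = 0.000533), cdc-25.1 by 0.78 ± 0.23 (adjusted p = 0.0115) and cyb-1 by 0.60 ± 0.15 (adjusted p = 0.00308). The fitted size of the cdc-25.2 change depends on the small count added to libraries without reads. cdk-1, cyb-2.1, cyb-2.2, wee-1.3, plk-1 and cks-1 were not called, with values from -0.01 for plk-1 to 0.76 ± 0.38 for cks-1 (adjusted p = 0.166). Within the 9 worms that gave both stages, cdc-25.1, cdc-25.2, plk-1 and cks-1 had a higher TPM in S3 in all 9, and the other 6 genes in 8. TPM rose more widely here: for log2(TPM + 1) the median of all genes tested was 0.12, with 1233 of 7878 called higher and 365 lower. Intestine markers moved in the same comparison: all 5 of the 9 that could be tested, vit-2 among them, were called higher in S3, where their summed TPM ran up to 8509, although its median was 56.6 in S2 and 56.5 in S3. Their part in the values was not tested.

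The S2 to S3 calls depended on the settings. cdc-25.1 lost its call in 7 of 15 alternatives, among them all mapped libraries (adjusted p = 0.202) and the 3 limma settings (adjusted p = 0.0558 to 0.107). cyb-1 lost it in 5, among them all 8 stages in one fit (adjusted p = 0.0552). With worm as a block and the detected share kept in the fit, no gene of the 10 was called, and cyb-3 was at 0.46 ± 0.39 (adjusted p = 0.498). With worm as a block and the detected share left out, 5 were called: the same 4 and cyb-2.2, with cyb-3 at 0.97 ± 0.18 (adjusted p = 0.000883) and cdc-25.1 at 1.02 ± 0.16 (adjusted p = 0.000287). Of all 6128 genes tested with the block, 33 were called with the detected share kept and 1941 without it. With the detected share taken at a TPM of at least 1, cdc-25.2 and cyb-3 were called, beside 696 of all 6218 genes tested.

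No gene of the 10 was called between S3 and S4, where 7.65% of all genes tested were called, 3.69% higher and 3.96% lower. 1 gene had an unadjusted p under 0.05, cyb-1, at 0.41 ± 0.13 with an adjusted p of 0.0414 and a fold change of 1.33. On log2(TPM + 1) limma called 1873 of all 8511 genes tested, 1567 of them higher, on a scale where the median of all genes was 0.30. Of the 10 it called cyb-1, cyb-2.1, cyb-2.2, cyb-3 and cdc-25.1, with values of 0.70 to 0.86. Each of these 5 had a higher TPM in S4 in all 4 worms that gave both. DESeq2 called none. Between S4 and -3 oocytes (n = 11 and 6), 1.39% of all genes were called, 0.0841% higher and 1.3% lower, and none of the 10 was called by edgeR or DESeq2, with 3 at an unadjusted p under 0.05: cyb-2.2 at 0.65 ± 0.26, cyb-3 at 0.46 ± 0.22 and cdc-25.2 at 0.84 ± 0.34. In batch A alone cyb-3 was called at 0.60 (adjusted p = 0.0499).

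Among the oocytes no gene of the 10 was called. Between -3 and -2 (n = 6 and 13) edgeR called 0% of all genes, and between -2 and -1 (n = 13 and 15) 0.158%. DESeq2 and limma called none of the 10 in either comparison, and none had an unadjusted p under 0.05 by edgeR. From -2 to -1 the values ran from -0.50 ± 0.27 for cdc-25.2 and -0.41 ± 0.25 for cdc-25.1 to 0.01 for cdk-1, with adjusted p of 0.9996. In TPM cdc-25.1 and cyb-2.1 were lower in the -1 oocyte in all 8 worms that gave both, with median ratios of 0.547 and 0.676, and cyb-1, cdk-1, wee-1.3 and cdc-25.2 in 7 of the 8. The median of all genes was -0.16 on that scale in this comparison, and spermatheca and uterus markers had a higher median sum in -1 oocytes, as given above. Their part in these values was not tested.

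**Figure D2:**
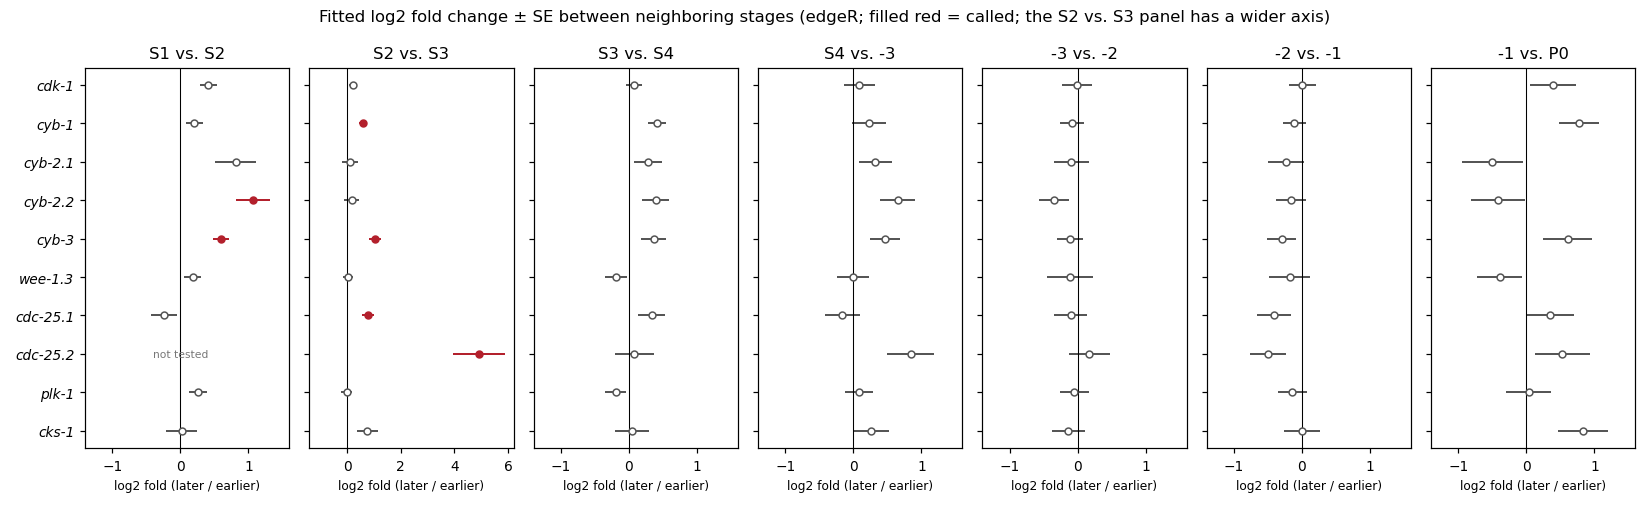
Fitted log2 fold changes ± SE (x axis, later over earlier stage) of the 10 genes in the 7 comparisons of neighboring stages, with called genes in filled red and an axis of its own in the S2 vs. S3 panel. The 6 calls lie in the first 2 panels, at 0.60 and 1.07 in S1 vs. S2 and from 0.60 to 4.91 in S2 vs. S3.

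Over the whole path, 7 of the 10 genes were called higher in -1 oocytes than in S1 (n = 15 and 19) and none lower, where 36.9% of all genes tested were called, 21.6% higher and 15.3% lower. The median of the 10 was 1.14, and that of all genes tested 0.15. cyb-3 rose by 2.35 ± 0.30 (adjusted p = 8.69e-08), cyb-2.2 by 2.23 ± 0.50 (adjusted p = 0.000453), cyb-2.1 by 1.51 ± 0.60 (adjusted p = 0.0437) and cyb-1 by 1.11 ± 0.27 (adjusted p = 0.0014). cdk-1 rose by 1.18 ± 0.24 (adjusted p = 0.000122) and cks-1 by 1.104 ± 0.39 (adjusted p = 0.0254). cdc-25.2 had a fitted change of 6.85 ± 1.12 (adjusted p = 6.42e-06), against S1 libraries mostly without a read. The call of cyb-2.1 was lost in 6 of 16 alternatives, among them batch A alone (adjusted p = 0.0534). The remaining genes were close to 0: wee-1.3 at 0.00 ± 0.31, plk-1 at -0.02 ± 0.27 and cdc-25.1 at 0.28 ± 0.33, with adjusted p of 0.998, 0.954 and 0.5465.

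In the 7 worms with both an S1 and a -1 library, cdk-1, the 4 cyclin genes, cks-1, cdc-25.1 and cdc-25.2 had a higher TPM in the -1 oocyte in all 7, wee-1.3 in 5 and plk-1 in 6. The median ratio was 18.01 for cyb-2.2, 9.53 for cyb-3 and 3.73 for cdk-1. For log2(TPM + 1) the median of all genes tested was 0.77 between these stages, with 3156 of 8228 called higher and 617 lower. With worm as a block in these 7 worms the fit called none of the 10 when the detected share was kept, and cyb-2.2 then had a value of -2.70 ± 1.85. With the block and without the detected share it called 8, with cyb-2.2 at 3.35 ± 0.63 (adjusted p = 0.00122), cyb-3 at 2.54 ± 0.35 (adjusted p = 0.000153) and cdc-25.1 at 0.83 ± 0.25 (adjusted p = 0.0161). Of all 5844 genes tested, 3 were called with the detected share kept and 2911 without it. In batch A alone 6 were called, all but cyb-2.1 of the 7, and in batch B alone, without the detected share, cyb-2.2, cyb-3 and cdc-25.2 were called. Over all genes tested, 2749 of 6564 were called in batch A alone and 1422 of 6837 in batch B alone. In a test over the 7 stages from S1 to -1 oocytes, where 67.3% of all genes tested were called, 8 of the 10 genes were called, with plk-1 (adjusted p = 0.0815) and wee-1.3 (adjusted p = 0.198) left. These non-calls depended on the filters: all 10 were called with no genes left out (adjusted p = 0.0146 and 0.0486 for these genes) or with no low-count filter (0.013 and 0.0447), and plk-1 also with all mapped libraries (0.0406). Of all genes tested, 6137 of 9060, 11408 of 19697 and 6084 of 9432 were called in these fits, in the same order.

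Between -1 oocytes and P0 (n = 15 and 6), where 5.97% of all genes tested were called, 0.185% higher and 5.78% lower, none of the 10 was called by edgeR or DESeq2. By edgeR 2 had an unadjusted p under 0.05, cyb-1 at 0.78 ± 0.29 (adjusted p = 0.152) and cks-1 at 0.83 ± 0.37 (adjusted p = 0.272). The TPM of cyb-1 was 966, 1519 and 935 in the zygotes of worms 2, 4 and 9, 560.5 in that of worm unknown5, and 1398 and 180.5 in those of worms unknownA and unknownB. The first 4 are batch A and the last 2 batch B. The zygote of worm unknown5 is the single-end library of a separate run, and those of unknownA and unknownB, which the quality table gives no stage, come from a run with no -1 oocyte. The labels of those 2 name different worms, whereas the quality table gives both the same worm, so they may not be independent.

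The zygotes did not move as a group. Those of unknown5 and unknownB were the lowest 2 of the 6 for cdk-1 (116 and 131), cyb-1, cyb-2.1 (48.1 and 80.3), cyb-2.2 (78.5 and 163), cyb-3 (670.1 and 491), cdc-25.1 (31.7 and 30.1) and plk-1 (40.3 and 69.9). In the other 4 cdk-1 lay between 555 and 952 and cyb-3 between 2410 and 3861, above the medians of 367 and 1108 in the -1 oocytes. cks-1 was at 458, 577, 536 and 529 in the batch A zygotes and at 2113 and 980.4 in the batch B zygotes, so that 14 of 15 -1 oocytes lay below all 6 zygotes.

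Which gene was called depended on the libraries and the scale. In the 3 zygotes and the -1 oocytes of the run that holds most of batch A, 3 of the 10 were called: cyb-3 at 0.90 (adjusted p = 0.0168) and cyb-1 at 0.84 (adjusted p = 0.0252) were higher in P0, and cyb-2.1 was lower at -0.92 (adjusted p = 0.0368). Of all 8061 genes tested in that fit, 592 were called, 55 higher and 537 lower in P0. Without the zygote of unknownB cyb-1 was called at 0.91 (adjusted p = 0.0445). With all 8 stages in the same fit cyb-1 was called at 0.72 (adjusted p = 0.00661). On log2(TPM + 1) limma called cks-1 at 1.39 (adjusted p = 0.0309), where the median of all genes was 0.24. Sheath and muscle markers fell in the same comparison, with 7 of 10 tested called lower in P0. Of the 9 spermatheca and uterus markers tested, 4 were called lower in P0. Their median summed TPM was 14307 in -1 oocytes and 53.4 in P0. The part of either list in these values was not tested.

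**Figure D3:**
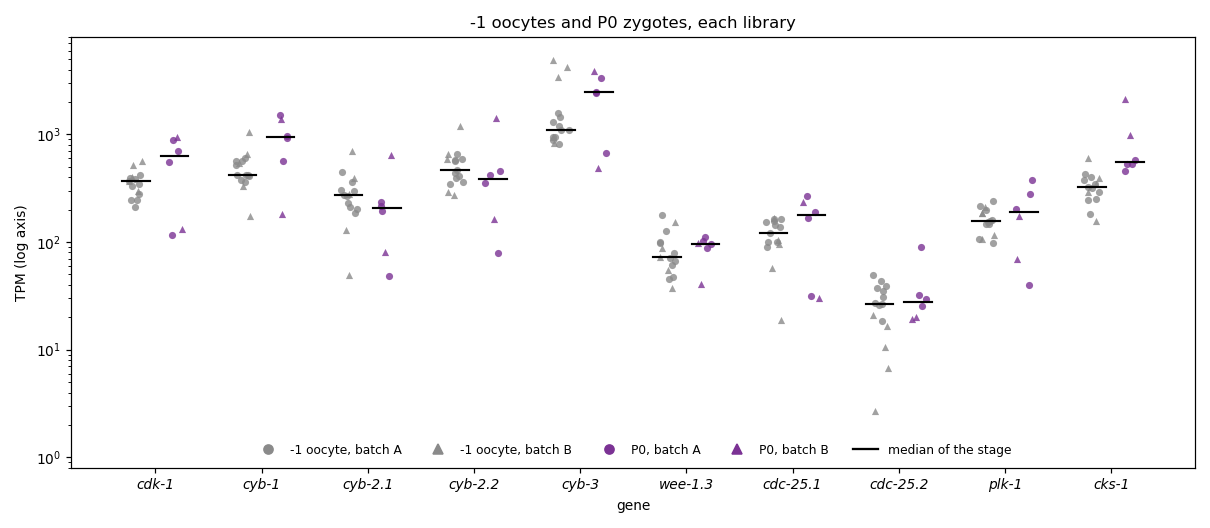
TPM (log axis) of the 10 genes (x axis) in the 15 -1 oocytes in grey and the 6 zygotes in purple, with circles for batch A, triangles for batch B and bars for the medians. The zygotes of cyb-1 spread from 180.5 to 1519 and those of cks-1 from 458 to 2113, and 14 of the 15 -1 oocytes lie below all 6 zygotes for cks-1.

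Ratios of TPM within a library do not depend on the total of that library. The 7 described here were formed after the levels had been seen, so they are given as values with no test. The summed TPM of the 4 B-type cyclins per cdk-1 had a median of 3.21 in S1, 3.54 in S2, 5.76 in S3, 7.07 in S4, 8.12 in -3, 7.55 in -2 and 7.72 in -1 oocytes, and 7.18 in P0. By geometric means it was 2.57 times as high in -1 oocytes as in S1, with 14 of 15 -1 oocytes above all S1 libraries, and 2.495 times as high in batch A alone. P0 stood at 0.946 times the -1 oocytes, and none of the 6 zygotes lay above or below all of them.

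**Figure D4:**
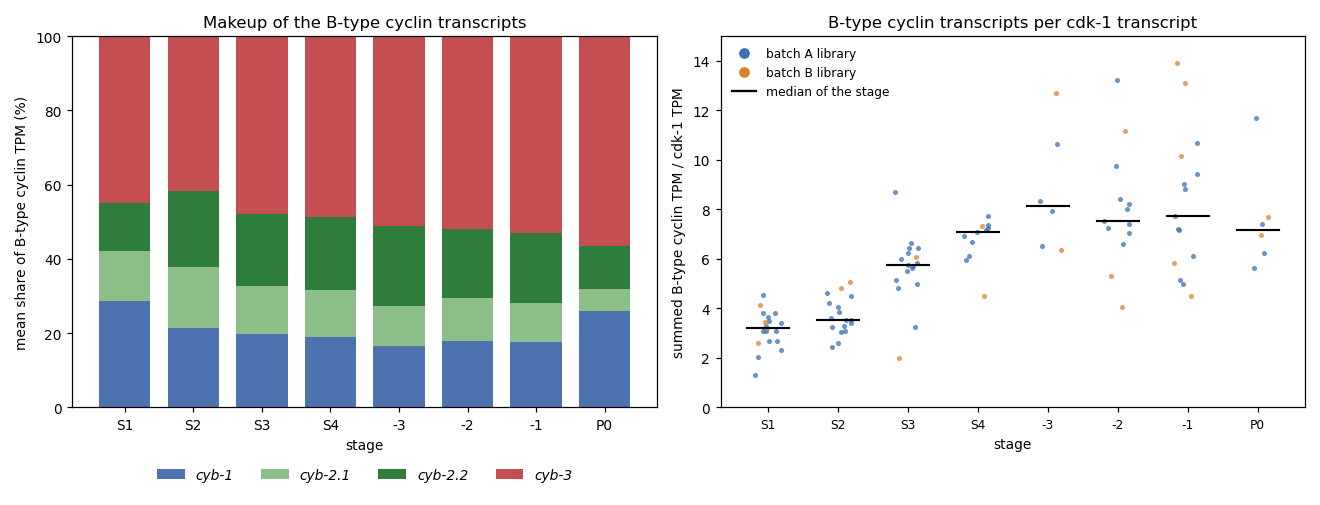
Left, the mean share (%) of each B-type cyclin gene in the summed TPM of the 4, by stage. Right, that sum divided by the TPM of cdk-1 in each library, with batches in blue and orange and the stage median as a bar. The median rises from 3.21 in S1 to 8.12 in -3 oocytes.

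Within the B-type cyclins, cyb-3 took a mean of 44.9% ± 11.1 (SD, n = 19) of their TPM in S1, 41.7% ± 5.4 (SD, n = 17) in S2 and 48.0% ± 3.7 (SD, n = 17) in S3. Its share was 52.9% ± 11.4 (SD, n = 15) in -1 oocytes, with 1 of the 15 above all S1 libraries. The share of cyb-1 was 28.7% ± 7.1 (SD, n = 19) in S1, 17.7% ± 4.7 (SD, n = 15) in -1 oocytes and 25.9% ± 8.2 (SD, n = 6) in P0. The -1 oocytes were at 0.613 times the S1 value, or 0.725 in batch A alone, with 3 of 15 below all S1 libraries, and P0 was at 1.46 times the -1 oocytes, with 2 of 6 zygotes above all of these. The cyb-2.2 to cyb-2.1 ratio had a median of 0.949 in S1 and 1.79 in -1 oocytes, with the uncertain split of these paralogs as above. Its S1 values ran from 0.0497 to 2.37. Of the -1 oocytes 1 of 15 lay above all S1 libraries, and 0 of 10 in batch A alone. It could be formed in 18 of the 19 S1 libraries, since the other had cyb-2.1 at 0 with cyb-2.2 above 0.

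Among the regulators of CDK-1, the ratio of wee-1.3 to cdk-1 had a median of 0.518 in S1, 0.425 in S2, 0.440 in S3, 0.415 in S4, 0.246 in -3, 0.300 in -2 and 0.213 in -1 oocytes, and 0.164 in P0. The -1 oocytes were at 0.457 times the S1 value by geometric means, and at 0.5085 in batch A alone. The S1 libraries ran from 0.231 to 0.789, and 9 of 15 -1 oocytes lay below all of them. The ratio of cdc-25.1 to wee-1.3 had medians of 0.848 in S1, 0.699 in S2, 1.28 in S3 and 1.64 in -1 oocytes, with 6 of 15 -1 oocytes above all S1 libraries. That of plk-1 to cdk-1 went from 0.933 in S1 to 0.462 in -1 oocytes, with 6 of 15 below all S1 libraries. In P0 these ratios spread widely: wee-1.3 to cdk-1 ran from 0.103 to 0.818 over the 6 zygotes.

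**Figure D5:**
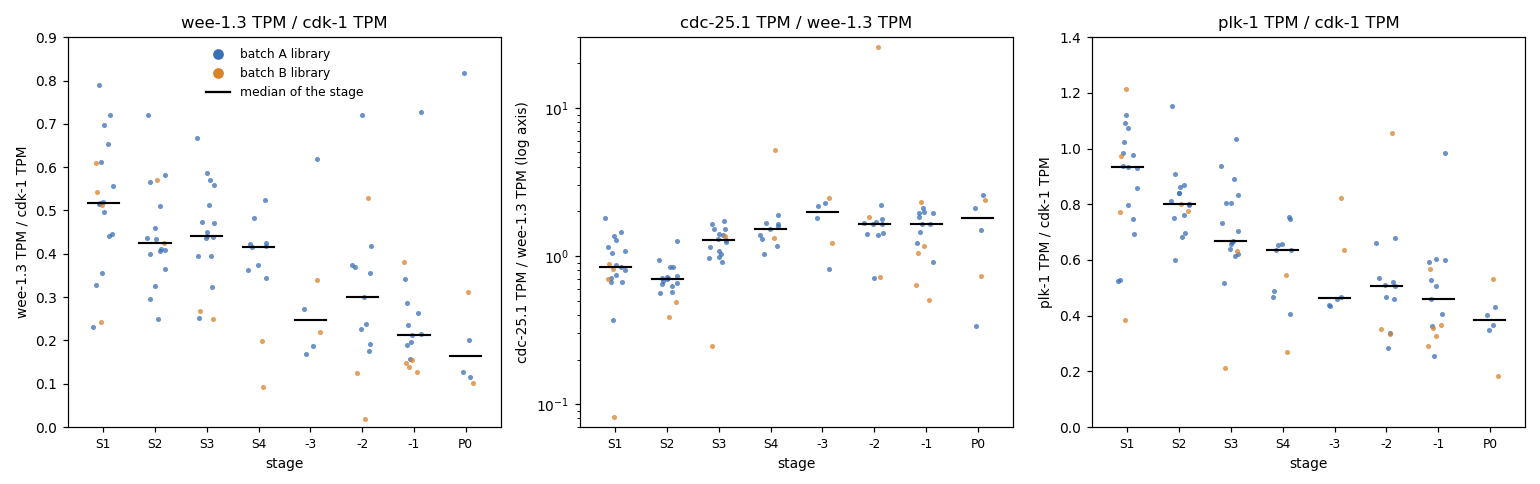
TPM ratios of wee-1.3 to cdk-1, cdc-25.1 to wee-1.3 (log axis) and plk-1 to cdk-1 in each library by stage, with batches in blue and orange and the stage median as a bar. From S1 to -1 oocytes the medians go from 0.518 to 0.213, from 0.848 to 1.64 and from 0.933 to 0.462.

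Other genes of the pathway were taken from lists set by function, and oma-1, oma-2 and lin-41 are also among the oocyte markers. Of 5 paralogs of the 10 genes, wee-1.1 and cdc-25.4 had too few reads to be tested, and the Polo kinase paralogs plk-2 and plk-3 were called in no comparison of a pair of stages. cdc-25.3 had a median TPM of 0 in S1, 0.118 in S2, 42.5 in S3 and 106 in S4. It rose by 3.47 ± 0.84 from S2 to S3, where cdc-25.2 also rose, and by 0.86 ± 0.21 from S3 to S4. Of 18 upstream regulators, 2 of 16 tested were higher in S2 than in S1, oma-1 (1.02 ± 0.23) and oma-2 (0.85 ± 0.26), whose RNA-binding products are needed for oocyte maturation. From S2 to S3, 3 of 17 rose and 1 fell: oma-2 by 1.38 ± 0.36, lin-41, which holds CDK-1 inactive in growing oocytes, by 1.77 ± 0.33, and the 14-3-3 gene ftt-2 by 2.50 ± 0.74. gld-1, a translational repressor of the pachytene region, fell by 1.20 ± 0.28. From S1 to -1 oocytes 5 of 16 were higher (ftt-2, lin-41, mbk-2, oma-1 and oma-2) and none lower, with a median of 0.13 over the list and 0.15 over all genes tested. These counts stand beside 14.6%, 20.6% and 36.9% of all genes tested that were called in the same comparisons.

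Of 15 phosphatase and M phase exit genes, zyg-11 rose from S1 to S2 by 0.89 ± 0.24. From S2 to S3, where 20.6% of all genes tested were called, the 4 called were cul-2 (0.75 ± 0.18) and zyg-11 (0.72 ± 0.26), parts of a ubiquitin ligase that acts in meiotic exit, with the securin gene ify-1 (0.59 ± 0.18) and the phosphatase gene cdc-14 (0.62 ± 0.23). From S1 to -1 oocytes, where 36.9% were called, 4 were higher (zyg-11 at 2.17 ± 0.43, cdc-14 at 1.64 ± 0.54, ify-1 and zer-1), and the phosphatase gene gsp-1 fell by 1.07 ± 0.27. sep-1, the separase gene, was lower in -3 oocytes than in S4 by 1.20 ± 0.26 on the log2 scale. Of 7 genes of G1 and S phase, such as cye-1 and cdk-2, 1 was called in any neighboring comparison, cdk-4 in S2 vs. S3 (4.42 ± 0.84).

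For each of the 10 genes, the 3 genes most alike over the 104 libraries were found by Pearson's r of log2(TPM + 1) among 5436 genes with a mean TPM of at least 10. Libraries share stage, batch and worm, so these values describe likeness and carry no test. For cyb-3 they were spn-4 (0.96), rnr-2 (0.96) and Y37D8A.4 (0.94), and for cyb-1 C36B1.11 (0.93), cyb-3 (0.93) and rnr-2 (0.93). For cdk-1 they were cyb-3 (0.91), spn-4 (0.91) and rnr-2 (0.90). For cyb-2.2 they were oma-2 (0.94), oma-1 (0.94) and spn-4 (0.93), and for cyb-2.1 cyb-2.2 (0.90), spn-4 (0.89) and oma-1 (0.88). spn-4, oma-1 and oma-2 encode RNA-binding proteins of oocytes and early embryos, and rnr-2 a subunit of ribonucleotide reductase.

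cdc-25.2 was most like C17E7.4 (0.97), its paralog cdc-25.3 (0.96) and rgs-9 (0.96). cdc-25.1 was most like app-1 (0.86), fzy-1 (0.85) and suco-1 (0.85), and cks-1 like M02B1.3 (0.86), F52A8.1 (0.86) and yop-1 (0.86). The values were lowest for wee-1.3, with hda-3 (0.83), emb-8 (0.81) and lig-1 (0.78), and plk-1, with F14E5.2 (0.82), paa-1 (0.81) and dnj-5 (0.79). Between the 10 genes themselves r ran from 0.51 for cdk-1 and wee-1.3 to 0.93 for cyb-1 and cyb-3.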

How the data were processed

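Gene counts per library were deposited by the authors, who trimmed reads with Trim Galore, mapped them with HISAT2 and counted them with HTSeq at default settings, so reads that map to several genes were not counted. TPM values were deposited by the authors from Salmon, and were rescaled here to the same total over worm genes, without the 92 spike-in sequences. Deposited quality values (fractions of reads or TPM, batch, run and use) came from the authors' table. Versions of these tools are not given in the sources used here. Libraries were grouped by the GEO labels, and p-values measure the spread between libraries. Many worms gave libraries of several stages, which the fits without a worm block treat as independent.

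Stages were compared on counts with edgeR 4.0.16 (quasi-likelihood, TMM, minimum count 10) in R 4.3.3, with the covariates of the study's design, which are the library batch and the detected share of genes. edgeR stands in for Monocle2, which was not used here. Before the fits 797 genes were left out: 36 mitochondrial genes, 22 rRNA genes, and 741 genes that follow the 31 msp genes at r above 0.99, with some overlap. The fits were tested on simulated data. DESeq2 1.42.0 and limma 3.58.1 on log2(TPM + 1) were alternatives, as were other filters, covariates, batches and libraries. Ratios of TPM are described with no test. All 10 genes are named, with a fold change where called or where the text needs it, and other genes come from fixed lists. The members and lists were chosen with earlier results of these data known.

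Worm was used as a block because libraries of the same animal carry its identifier in the labels. Residuals of libraries of the same worm had a mean correlation of 0.07 to 0.28, against -0.02 to 0.00 for other pairs. Coordinates and overlaps are from Ensembl's WBcel235 annotation.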

Additional observations from a re-analysis of the deposited data

Results flagged for a closer look

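In the stages with 4 to 10 libraries, which are -3 oocytes and P0, 20 groups of values were examined, and 7 held a library far from the others by Dixon's criterion. Chance gives about 1 in 20 for independent values of a normal distribution. The groups share the same libraries and mix batches, so that rate cannot be set against the 7. The zygote of worm unknownA had the highest cyb-2.1 (639 TPM), cyb-2.2 (1409 TPM) and cks-1 (2113 TPM), where the next values were 238, 453 and 980.4. The zygote of worm unknownB had the lowest wee-1.3 (41.1 TPM), with the next at 88.7. Both are batch B. The zygote of worm 9 had the highest cdc-25.2 (89.3 TPM), with the next at 31.96. Among -3 oocytes that of worm 20 had the highest wee-1.3 (243 TPM, next 119), and that of worm J the lowest cks-1 (175 TPM, next 387).

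Early embryos were not part of the comparisons. There are 9 such libraries, none marked as used, with 17.15 to 85.57% of reads mapped uniquely, below 70% in 6, and no batch given for 3. Each of the 10 genes was detected in at least some of them. Their median TPM was 467 for cdk-1 (range 9.33 to 861), 471 for cyb-1 (28.5 to 2160.2), 40.4 for cyb-2.1 (0.0794 to 264), 152 for cyb-2.2 (0.889 to 649) and 867 for cyb-3 (62.2 to 3745). It was 7.25 for wee-1.3 (0 to 383), 14.5 for cdc-25.1 (0 to 435), 31.8 for cdc-25.2 (0 to 178), 53.7 for plk-1 (1.94 to 389) and 99.97 for cks-1 (0.575 to 1296). The ranges overlap those of the zygotes, and no comparison was made.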

How the results depend on the processing

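For 15 results of single genes, alternative fits gave 200 values with the same direction and side of the threshold, 36 that lost the call, 7 that gained it and 1 that turned: cyb-2.2 from S1 to -1 oocytes, at -2.70 with worm as a block. The number of the 10 genes called from S1 to S2 (2) was 1 in batch A alone, 0 in batch B alone, and 4 with limma on log2(TPM + 1) or with all 8 stages in one fit. From S2 to S3 (4) it was 0 in batch B alone, 0 with worm as a block and the detected share kept, and 2 with the detected share taken at a TPM of at least 1. From S3 to S4 (0) it was 5 with each of the 3 limma settings. From S4 to -3 (0) it was 1 in batch A alone. From -1 to P0 (0) it was 1 with all mapped libraries, with each limma setting and with all 8 stages in one fit, 3 in the run that holds most of batch A, and 0 to 1 when each zygote was left out, with 1 without that of unknownB. From S1 to -1 (7) it was 3 in batch B alone and 0 with worm as a block. With the block and the detected share left out, it was 3, 5 and 8 for S1 to S2, S2 to S3 and S1 to -1. Of all genes tested, batch B alone called 0 of 5875 from S1 to S2 and 0 of 6446 from S2 to S3. From S1 to -1 it called 1422 of 6837. The block with the detected share kept called 33 of 6128 from S2 to S3 and 3 of 5844 from S1 to -1. Without that share the block called 1072 of 5225, 1941 of 6128 and 2911 of 5844 for these 3 comparisons. Limma on log2(TPM + 1) called 1000 of 6203 from S1 to S2 and 1873 of 8511 from S3 to S4. All 8 stages in one fit called 1695 of 9093 from S1 to S2 and 991 of 9093 from -1 to P0. Batch A alone called 886 of 5222 from S1 to S2 and 204 of 7375 from S4 to -3. From -1 to P0 all mapped libraries called 649 of 6976, and the run that holds most of batch A 592 of 8061. Leaving out each -3 oocyte gave 0 calls among the 10 from S4 to -3 and from -3 to -2. With all mapped libraries plk-1 was called lower from S1 to -1, at -0.89. In that fit the median of all 6113 genes tested was -0.39, with 1737 called lower and 835 higher. Without the S1 library of worm A the number of the 10 genes called was 3 from S1 to S2, 7 from S1 to -1 and 8 over the 7 stages. Of all genes tested, 961 of 5248, 2525 of 6115 and 6255 of 8974 were then called, in the same order. The cause of these shifts was not tested. Batch A or B alone, the single run, the left-out libraries and the block use fewer samples. Among the used libraries no worm gave both a -1 oocyte and a P0, so no block was possible for that comparison. The settings added after seeing the data are the TPM-based detected share, the left-out libraries, the single run, the block without the detected share, and all values of the ratios. Most S1 and S2 libraries had at most 3 reads of cdc-25.2.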
